A study of Rattus norvegicus with 10 samples.

Results

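Ibsp (ENSRNOG00000002158), which encodes bone sialoprotein, and Dspp (ENSRNOG00000002168), which encodes dentin sialophosphoprotein, were followed across the supraoptic nuclei (SONs) of rats in which Creb3l1 had been knocked down. These 2 genes, of 32402 in the count table, were chosen by their fall between these control and knockdown SONs, so their own difference between the groups is described here and carries no test. Poly(A) RNA was sequenced from 10 SONs of 5 male Sprague Dawley rats kept with food and water ad libitum. In each animal one SON was injected with an adeno-associated virus (AAV) carrying a non-targeting control shRNA, and the other with an AAV carrying a Creb3l1 shRNA, and tissue was taken 3 weeks later. All 5 control SONs are labelled L and all 5 knockdown SONs R, read here as left and right, so the effect of side and the effect of the hairpin cannot be told apart. Each sample was a tissue punch over the nucleus, which also takes in glia, vessels and neighbouring neurones, and the sources used here do not name a promoter for the hairpins. No group was water deprived, and no group was left without a virus. In such bulk tissue, fewer cells of a type and less RNA per cell cannot be told apart.

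Bone sialoprotein and dentin sialophosphoprotein belong to the small integrin-binding ligand N-linked glycoproteins, a family of secreted, acidic and heavily phosphorylated matrix proteins best known from mineralised tissue. Its other members are osteopontin (Spp1), dentin matrix protein (Dmp1) and matrix extracellular phosphoglycoprotein (Mepe). Bone sialoprotein helps to nucleate hydroxyapatite in bone, and the products of dentin sialophosphoprotein organise the mineral of dentine. Creb3l1, also called OASIS, is a transcription factor made as a membrane protein of the endoplasmic reticulum, cut in the Golgi to free its DNA-binding part. It is known in bone for driving type I collagen in osteoblasts and in the SON for regulating vasopressin and oxytocin in magnocellular neurones.

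The family lies in 1 stretch of the rat genome. In the RefSeq annotation of GRCr8 the order of protein-coding genes ran Spp1, Mepe, Ibsp, Dmp1 and Dspp, with Pkd2 before Spp1 and Sparcl1 after Dspp. Ibsp and Dspp are thus not next to each other, with Dmp1 between them. Creb3l1 is a DNA-binding factor of the bZIP class, and some known sites of this class centre on ACGT. The 250 bases before each annotated start are therefore shown. These sequences are from RefSeq (GRCr8, minus strand), chr14:5757243-5757492 for Ibsp and chr14:5876340-5876589 for Dspp. Both are written 5′ to 3′ with in capitals every ACGT and, where it has one, its TGACGT or CCACGT extension.
Ibsp: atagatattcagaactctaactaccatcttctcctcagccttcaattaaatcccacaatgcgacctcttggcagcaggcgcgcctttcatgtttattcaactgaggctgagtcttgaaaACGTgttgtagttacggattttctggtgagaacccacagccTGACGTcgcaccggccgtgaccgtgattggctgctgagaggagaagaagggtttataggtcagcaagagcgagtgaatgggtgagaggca
Dspp: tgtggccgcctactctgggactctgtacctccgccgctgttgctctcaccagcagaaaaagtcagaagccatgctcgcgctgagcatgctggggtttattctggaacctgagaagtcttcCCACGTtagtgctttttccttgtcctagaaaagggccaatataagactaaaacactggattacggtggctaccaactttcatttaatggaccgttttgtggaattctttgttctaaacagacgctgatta

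5 short motifs were searched on both strands. They were the core ACGT, its extension to TGACGT as in cAMP response elements, its extension to CCACGT, which holds the end of ER stress elements, the box CCAAT and the box TATAAA. The extended motifs overlap the core. They were picked after the sequences had been read. Other Creb3l1 motifs reported in the study, among them a GC-rich one, lack this core and were not searched here. The Ibsp window held ACGT at 2 places, the nearer of them inside a TGACGT that began 90 bases before the start. It also held CCAAT and TATAAA on the opposite strand, beginning 65 and 39 bases before the start, and the Ibsp promoter is known for its inverted CCAAT and TATA boxes and a cAMP response element. The Dspp window held 1 ACGT, inside a CCACGT that began 130 bases before the start, and 1 CCAAT that began 95 bases before it. Of the other family members, the Dmp1 window held 1 ACGT, and the Mepe and Spp1 windows held 0.

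Among 33469 promoter windows of the same length, 27.7% held ACGT, 6.95% held TGACGT, 6.71% held CCACGT, 34.0% held CCAAT and 12.9% held TATAAA. The core found in the Ibsp and Dspp windows was thus held by many promoters. The GC content was 49.2% for Ibsp and 47.2% for Dspp against a median of 51.2%, whereas CG dinucleotides numbered 11 and 9 against a median of 5. A match describes the letters of the window and was not tested for binding. The study mapped Creb3l1 binding by ChIP-seq in hypothalamic tissue of water-deprived rats, and those peaks were not used here.

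The counts behind these values came from libraries of similar depth, with totals of 29754252 to 34382889 in control SONs and 29020948 to 33612965 in knockdown SONs. Values are given as CPM, counts scaled to a common library total and corrected by the trimmed mean of M-values (TMM), which is a level for comparing 1 gene between samples and not for comparing genes of different length. Of the 32402 genes, 24286 had at least 1 count and 16286 passed the filter on low counts and were tested, Ibsp and Dspp among them. Dspp passed through its control SONs alone.

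Creb3l1 itself, the target of the hairpin, was read first. Its level in the control SONs of animals 1 to 5 was 20.3, 26.5, 30.7, 33.5 and 23.4 CPM. In the knockdown SONs of the same animals it was 7.10, 13.8, 8.69, 16.7 and 13.6 CPM. Every knockdown SON was lower than every control SON, with the highest knockdown level and the highest control level both in animal 4. The mean fell from 26.9 ± 5.35 to 12.0 ± 3.96 CPM (SD, n = 5 each), which left 44.6% of the control level. The log2 fold change was -1.16 with a standard error (SE) of 0.24 (edgeR quasi-likelihood test, Benjamini-Hochberg adjusted p = 0.0173). With the animal as a block, the log2 fold change was -1.21 and the adjusted p was 0.0586 in edgeR, so the call was lost in the paired fit although the transcript was lower in 5 of 5 animals.

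Ibsp was a gene of middling abundance in the control SON. Its counts there were 531, 441, 547, 714 and 467, or 17.9, 13.2, 15.7, 21.5 and 13.8 CPM in animals 1 to 5. In the knockdown SONs the counts were 30, 44, 57, 87 and 22, or 0.95, 1.36, 1.90, 3.14 and 0.71 CPM. The groups did not overlap, and the lowest control level was 4.20 times the highest knockdown level. Animal 4 had the highest Ibsp level on both sides, whereas the lowest control level was in animal 2 and the lowest knockdown level in animal 5.

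The mean Ibsp level was 16.4 ± 3.39 CPM in control SONs and 1.61 ± 0.965 CPM in knockdown SONs (SD, n = 5 each). 9.82% of the control level remained, and the fitted log2 fold change was -3.35 (SE 0.37). The control SONs were tight, with a coefficient of variation (CV) of 20.7% and a highest-to-lowest ratio of 1.63. In the knockdown SONs the CV was 59.9% and the ratio 4.42. Counting error alone would give a CV of 4.30% in the control SONs and 14.4% in the knockdown SONs, so in both groups the spread between SONs was wider than counting error.

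Dspp had few counts in the control SONs and was not counted in any knockdown SON. Its control counts were 21, 40, 26, 37 and 22 in animals 1 to 5, or 0.71, 1.19, 0.75, 1.11 and 0.65 CPM. In the 5 knockdown SONs the count was 0. All 146 Dspp reads of the experiment were thus in control SONs, with the highest levels in animals 2 and 4. The control mean was 0.882 ± 0.252 CPM (SD, n = 5) with a CV of 28.5%, against 18.5% for counting error alone.

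A count of 0 sets a limit and not a level. Taking 3 counts as the most that a library with 0 allows, or 0.0985 CPM on average over the knockdown libraries, Dspp was at least 8.96-fold lower in the knockdown, with at most 11.2% left. Taking 3 counts over the 5 knockdown libraries together, it was at least 44.9-fold lower, with at most 2.23% left. These limits cover counting error only. As a scale for the count of 0, the share left of Ibsp would have given 13.2 Dspp counts over the 5 knockdown SONs, at 2.40 to 2.79 in each. The share left of Creb3l1 would have given 60.1 counts. The observed sum was 0, but Dspp was chosen by this fall. The comparison is thus no test, and no deeper loss than that of Ibsp is read from it.

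**Figure D1:**
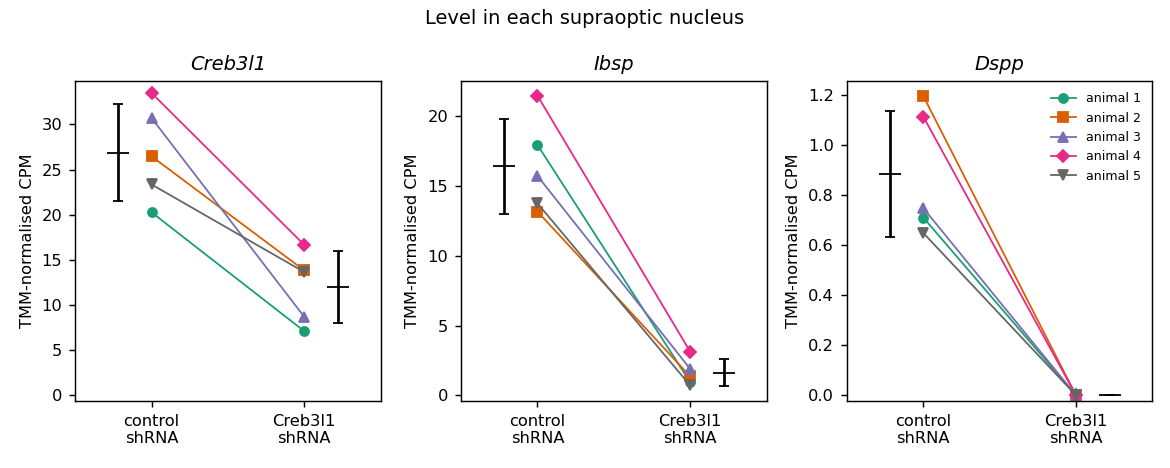
TMM-normalised CPM (linear axes from 0) of Creb3l1, Ibsp and Dspp in the control shRNA and Creb3l1 shRNA SON of each of 5 animals, with a line joining the SONs of 1 animal and black bars for the mean and SD of each group. Every line falls, with Creb3l1 down to between 7.10 and 16.7 CPM, Ibsp to between 0.71 and 3.14 CPM, and Dspp to 0 in all 5 animals.

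Each animal carried its own control SON, so the share of a transcript left could be read within animals. For Creb3l1 the share left was 35.0% in animal 1, 52.2% in animal 2, 28.3% in animal 3, 49.7% in animal 4 and 58.4% in animal 5. For Ibsp it was 5.28%, 10.4%, 12.1%, 14.6% and 5.16% in the same order. Ibsp was thus 18.9, 9.65, 8.29, 6.84 and 19.4-fold lower on the knockdown side, and in every animal less of it was left than of Creb3l1. The exact 95% intervals hold counting error only and were, in animal 5, 3.20 to 7.91% for Ibsp and 51.8 to 65.8% for Creb3l1. As Ibsp was chosen by its fall, they describe these shares and carry no test.

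By point values, the order of the 5 animals by share of Ibsp left was not their order by share of Creb3l1 left. Animal 5 had the highest share of Creb3l1 and the lowest of Ibsp. Its Ibsp interval, 3.20 to 7.91%, overlapped that of animal 1, 3.53 to 7.63%. Its Creb3l1 interval, 51.8 to 65.8%, overlapped that of animal 2, 46.5 to 58.6%. Animal 3 had the lowest share of Creb3l1, 28.3% with an interval of 24.6 to 32.4%, which overlapped that of animal 1. Its share of Ibsp left was the second highest, 12.1% with an interval of 9.02 to 15.9%, which overlapped those of animals 2 and 4. The share of Creb3l1 left was 6.64, 5.04, 2.34, 3.40 and 11.3 times the share of Ibsp left in animals 1 to 5. On the log2 scale the Ibsp share lay 2.31 ± 0.875 below the Creb3l1 share (SD, n = 5 animals), a ratio of 4.97. With 5 animals this is an order of values, and no correlation was computed.

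For Dspp the limit within each animal was at most 13.3%, 7.79%, 13.4%, 9.72% and 14.9% of the control level in animals 1 to 5. These correspond to at least 7.49, 12.8, 7.48, 10.3 and 6.70-fold lower. In every animal the limit was under the share of Creb3l1 left. It was above the share of Ibsp left in animals 1, 3 and 5 and under it in animals 2 and 4. The limits leave out the error of the control counts, which the Ibsp intervals include. The order of the Dspp loss between animals could not be read, since the limits follow the control counts.

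Of 7 magnocellular markers, 2 had a symbol, Sim1 and Pdyn, and symbols were available for genes with a small adjusted p, so they do not stand for the list. Sim1, a transcription factor needed for magnocellular neurones to form, fell from 55.3 to 24.5 CPM (log2 fold change -1.18, edgeR adjusted p = 0.0136, and 0.0711 with the animal as a block). Pdyn, the precursor of dynorphin co-made with vasopressin, fell from 470 to 120 CPM (log2 fold change -1.97, edgeR adjusted p = 0.0331, and 0.093 with the animal as a block). The Pdyn call was kept in 3 of 10 fits that left out 1 SON, those without control 2, knockdown 3 or knockdown 5. Avp and Oxt, the defining hormones, were not analysed here, nor were markers of glia, vessels or other neurones, because their identifiers came with no symbol.

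The share of Sim1 left was 43.7%, 31.8%, 79.3%, 41.1% and 32.4% in animals 1 to 5, and that of Pdyn was 16.7%, 25.5%, 62.2%, 23.1% and 5.89%. Both markers were thus best preserved in animal 3, the animal with the lowest share of Creb3l1 left. In animal 3, 12.1% of Ibsp, its second highest share, and at most 13.4% of Dspp were left. Animals 5 and 1 kept the least Pdyn, 5.89% and 16.7%, and also the least Ibsp, 5.16% and 5.28%. The least Sim1 was kept in animals 2 and 5, and animal 1 kept more Sim1 than every animal but animal 3. Animal 4 kept the most Ibsp, 14.6%, but less Pdyn than animals 2 and 3 and less Sim1 than animals 1 and 3. The mean share left over the animals was 45.6 ± 19.5% for Sim1, 26.7 ± 21.2% for Pdyn, 44.7 ± 12.6% for Creb3l1 and 9.50 ± 4.19% for Ibsp (SD, n = 5). The part of the markers in the Ibsp and Dspp values was not tested.

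**Figure D2:**
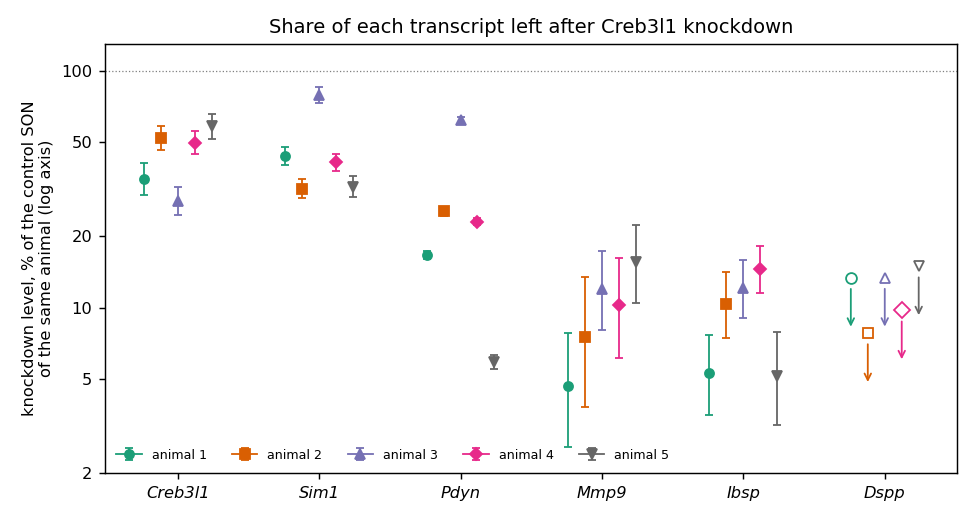
Knockdown level as a percentage of the control SON of the same animal (log axis) for Creb3l1, Sim1, Pdyn, Mmp9, Ibsp and Dspp, with 1 symbol per animal. Bars are exact 95% intervals for counting error. Open symbols with arrows are upper limits for Dspp, counted at 0, which leave out the error of its control counts. Ibsp lies between 5.16 and 14.6% in all animals while Creb3l1 lies between 28.3 and 58.4%, and animal 3 stands highest for Sim1 and Pdyn.

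Among the 16286 genes tested, Dspp and Ibsp stood near the far end of the losses. As background, 1280 genes (7.86%) passed an adjusted p of 0.05 in the edgeR test, 732 lower (4.49%) and 548 higher (3.36%), and 895 genes (5.5%) had every knockdown SON below every control SON, as Ibsp, Dspp and Creb3l1 did. The contrast chose the members, so nothing is read from these shares. Ordered by the percentage of the control mean left, Dspp was the first gene and Ibsp was number 13, between Mmp9 with 9.75% and Cpa1 with 10.2%. Creb3l1 had 154 genes with less left than itself. The median gene kept 103% of its control mean, 233 genes (1.43%) kept under 50%, and 13 genes kept under 10%.

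Most of the genes with less left than Ibsp were low in CPM. Among the 14796 genes with a control mean of at least 1 CPM, 5 had less left than Ibsp. By control CPM, Ibsp stood at percentile 41.9 of the tested genes, Dspp at 8.12 and Creb3l1 at 53.8. CPM is not corrected for gene length, so these percentiles rank counts and not abundance.

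Dspp was chosen by its fall, so its place among the genes at 0 counts is a description and no test. The number of genes with at least 10 counts in every control SON is not given here, so no rate is read. A total of 1223 genes were at 0 in every knockdown SON with at least 1 control count, but Dspp alone among all genes combined this with at least 10 counts in every control SON. After Dspp with 146 counts, the highest summed control count in that set was 72. In the mirror image, 0 genes were at 0 in every control SON with at least 10 counts in every knockdown SON. With a minimum of 3 counts, ENSRNOG00000022313 joined Dspp, and 1 gene met the mirror image. At the minimum of 10 but without the knockdown SON of animal 3, ENSRNOG00000013496 joined Dspp. It had 1 count in that SON and 11 to 18 in the controls.

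**Figure D3:**
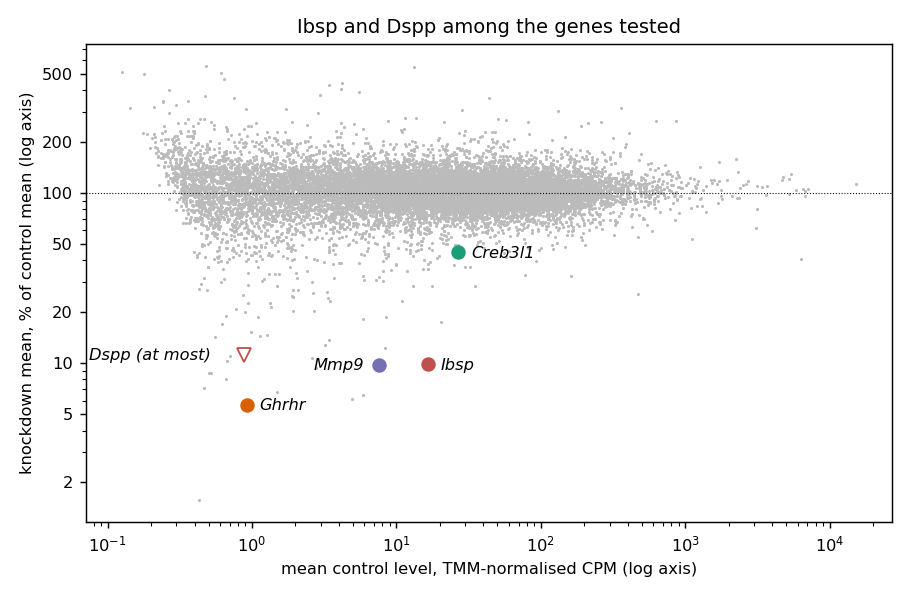
Mean knockdown level as a percentage of the mean control level against the mean control level in TMM-normalised CPM (both log axes), 1 grey point for each gene tested, with the dotted line at 100%. Ibsp and Mmp9 lie near 10%, Creb3l1 at 44.6%, and Dspp, counted at 0 in the knockdown, is drawn as an open triangle at its upper limit of 11.2%.

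Of the genes that act with these proteins, few could be read. Symbols were available for 1999 identifiers, those with the smallest adjusted p in the study's own comparison, and 9 of 119 genes on the lists had one. Spp1, Dmp1, Mepe and the other neighbours of the gene cluster were not analysed here, and neither were the Creb3l1 relatives. 7 of the 9 named genes passed the test, beside 7.86% of all genes. As naming followed a small p, that count carries no information about the lists, and only the values of the genes are given.

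Of the 21 genes for processing and binding partners, 3 had symbols. Mmp9, a secreted gelatinase known to bind the family member Dmp1, was at 10.1, 4.96, 8.59, 7.03 and 6.86 CPM in the control SONs and at 0.474, 0.372, 1.03, 0.721 and 1.06 CPM in the knockdown SONs. The groups did not overlap, and the lowest control value lay well above the highest knockdown value. Its mean fell from 7.52 to 0.733 CPM, with a log2 fold change of -3.35 (SE 0.32, edgeR adjusted p = 0.00121). It was the single list gene that also passed with the animal as a block (edgeR adjusted p = 0.0415), a fit that called 9 genes (0.0553%). Mmp9 passed in 10 of 10 fits that left out 1 SON, as did the list genes Phospho1, Wif1 and Sim1. The share left was 4.67%, 7.51%, 12.0%, 10.3% and 15.5% in animals 1 to 5, a mean of 9.99 ± 4.16% (SD, n = 5) beside 9.50 ± 4.19% for Ibsp. By point values the order of the animals differed, since animal 5 had the highest share of Mmp9 and the lowest of Ibsp. For both genes its interval for counting error overlapped that of at least 1 other animal.

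Pcsk5, a proprotein convertase of the secretory pathway, fell from 25.5 to 12.6 CPM, with a log2 fold change of -1.02 (SE 0.26, edgeR adjusted p = 0.0407). Phex, a membrane endopeptidase of bone and teeth that acts on acidic peptides of this family, moved the other way, from 0.546 to 1.36 CPM, with a log2 fold change of 1.30 (edgeR adjusted p = 0.0418). Phex was higher in 4 of 5 animals, and in animal 3 it stood at 0.776 CPM in the control SON and 0.766 CPM in the knockdown SON. Neither call was firm. With the animal as a block the edgeR adjusted p was 0.114 for Pcsk5 and 0.133 for Phex, and leaving out 1 SON kept the Pcsk5 call in 2 of 10 fits, without control 2 or knockdown 3, and the Phex call in 1 of 10, without knockdown 3. Phex also stood on the list of 5 osteoblast and odontoblast markers, where it was the sole named gene.

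Among 22 bone and tooth matrix genes, Phospho1 and Bgn had symbols. Phospho1, a phosphatase that supplies phosphate at the start of mineralisation, fell from 14.0 to 7.11 CPM, with a log2 fold change of -0.98 (edgeR adjusted p = 0.00463, and 0.0562 with the animal as a block). Bgn, the small proteoglycan biglycan, was at 180 CPM in control and 248 CPM in knockdown SONs and did not pass the edgeR test (log2 fold change 0.46, adjusted p = 0.0705), although it did in DESeq2 (adjusted p = 0.0365), which called 11.8% of the genes it tested. Among 20 transcription factors and signals, Wif1, a secreted inhibitor of Wnt ligands, fell from 13.1 to 3.70 CPM, with a log2 fold change of -1.82 (edgeR adjusted p = 0.00104, and 0.05003 with the animal as a block). Msx1, a homeobox factor of tooth development, was at 2.27 and 3.86 CPM and did not pass the edgeR test (log2 fold change 0.76, adjusted p = 0.0831), although it did in DESeq2 (adjusted p = 0.0336).

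**Figure D4:**
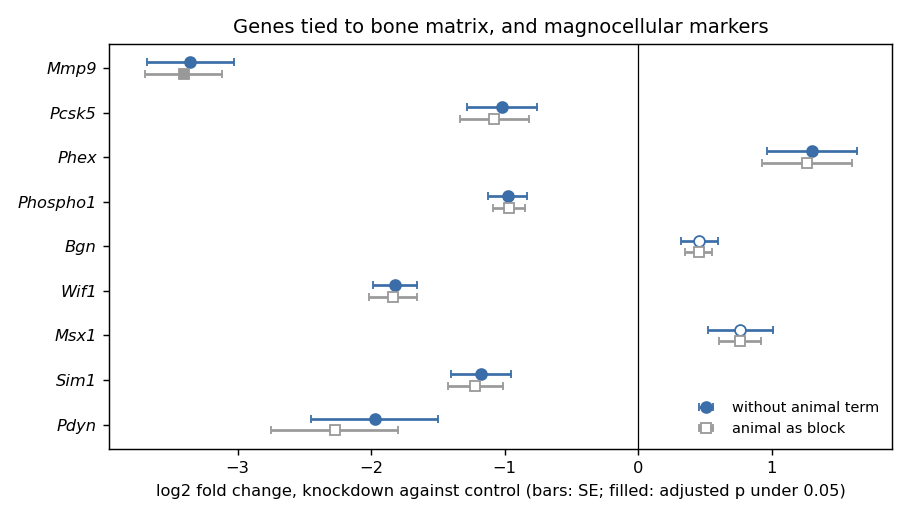
Log2 fold change of knockdown against control for the 9 list genes with a symbol, in the fit without an animal term (blue circles) and with the animal as a block (grey squares), with bars for the SE. Filled symbols have an adjusted p under 0.05, which holds for 7 genes without the animal term and for Mmp9 alone with it.

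The genes whose levels ran most like those of Ibsp and Dspp over the 10 SONs were found by Pearson's r of log2(CPM + 0.5). The r includes the group difference that chose the members and is a description. For Ibsp they were Kpna5 (r = 0.985), Mtfr1 (0.982), Nrdc (0.982), Ctr9 (0.978) and Wif1 (0.972). For Dspp they were Ghrhr (r = 0.978), AABR07060341.3 (0.972), Atr (0.966), Mtfr1 (0.966) and Slc25a40 (0.962). Mtfr1 was on both lists. The size of the difference varied widely among them, since Nrdc kept 82.2% of its control mean, Atr 79.4%, Ctr9 75.2%, Slc25a40 65.3%, Kpna5 64.9%, Mtfr1 43.8%, Wif1 28.2%, AABR07060341.3 10.9% and Ghrhr 5.67%.

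Ghrhr, the receptor for growth hormone-releasing hormone, had the least left of the 5 genes most like Dspp. Its counts were 30, 33, 30, 33 and 25 in the control SONs and 1, 1, 4, 0 and 2 in the knockdown SONs. Dspp and Ghrhr were thus counted in the same range in control SONs, while only Dspp was at 0 throughout. Ibsp and Dspp had an r of 0.943 with each other, which placed Dspp at rank 76 of the genes most like Ibsp, and Ibsp at rank 32 of those most like Dspp. The r with Creb3l1 was 0.871 for Ibsp (rank 432) and 0.863 for Dspp (rank 356). These ranks shift with the settings, and by Spearman's rho 26 genes shared the highest value with Dspp, 0.925, because its 5 knockdown values are tied at 0.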

How the data were processed

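Poly(A) RNA of 10 SONs was sequenced by the authors from stranded libraries. The deposited table holds raw counts per Ensembl gene, which the authors made with STAR and featureCounts on the Rn6 genome and its annotation. The names in the table header stand 1 field to the right of their columns and were read in order. Group and animal number came from the labels, and 5 control SONs were compared with 5 knockdown SONs.

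Counts were fitted with edgeR 4.0.16 in R 4.3.3 (filterByExpr with a minimum count of 10, TMM, quasi-likelihood test, Benjamini-Hochberg adjustment over 16286 genes, threshold 0.05), with no animal term, since the study's methods name none. The SONs with the same number came from 1 animal and are paired by design, but their deviations from the group means correlated at r of -0.117, 0.450, -0.440, -0.324 and -0.549. Alternatives were an animal block, DESeq2 1.42.0, limma-voom 3.58.1, other scalings and filters, and leaving out each SON. The SE of an edgeR log2 fold change was derived as its absolute value over the square root of the F statistic of the test. The fits were tested on simulated counts. Shares left have exact (Clopper-Pearson) 95% intervals, and 0 counts a floor of 3. The members, lists and motifs were chosen with earlier results of these data known. Genes named are Ibsp, Dspp, Creb3l1, list genes with a symbol, the 5 most alike each member and genes meeting the 0-count rule, and Cpa1 was named after its value was seen. Symbols came from a table of the study that covers 1999 identifiers. Its values were not used in any result. Promoters are from RefSeq GRCr8.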

Additional observations from a re-analysis of the deposited data

How the results depend on the processing

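Ibsp kept its direction in every fit run, and its log2 fold change ran from -3.76 to -3.20 when 1 SON was left out. The Dspp limit rose from 3.16 to 5.49 on the log2 scale when the floor was set over the 5 knockdown libraries, and ran from 3.03 to 3.26 when 1 SON was left out. Dspp had no fit where at least 10 counts were required in every SON. For Creb3l1 the log2 fold change was -1.21 with the replicate block (adjusted p = 0.0586, edgeR), and -1.33 to -1.02 when 1 SON was left out (adjusted p = 0.0194 to 0.0498). The adjusted p ranged from 2.08e-05 to 0.0586 over the other settings. The genes called numbered 9 with the replicate block and 2188 with DESeq2 on all counted genes. They numbered 2804 with DESeq2 on the filtered genes, an alternative chosen after seeing the data. They ranged from 519 to 1699 when 1 SON was left out, with 817, 558 and 613 without control 2, 3 and 5 and 519, 614 and 834 without knockdown 1, 2 and 4. Of calls, 42.8% were higher with TMM and 23.6% with library size only. The list genes called were 7, falling to 1 with the replicate block and to 4 to 7 when 1 SON was left out. The lowest number came without control 1, 3, 4 or 5 or knockdown 1, 2 or 4. Genes meeting the 0-count rule rose from 1 to 2 at a minimum of 3 counts, and ranged from 1 to 2 when 1 SON was left out. Of the 10 most alike genes, 1 stayed by Spearman's rho and 7 with a pseudocount of 0.1, and 3 to 7 stayed when 1 SON was left out. Besides that of Creb3l1, the block ended the calls of Pcsk5, Phex, Phospho1, Wif1, Sim1 and Pdyn, and of the 9 list genes it changed no other call, no filter on low counts ended that of Phex, and both DESeq2 runs added Bgn and Msx1. The cause of these shifts was not tested.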
